A study of Mus musculus with 4 samples.

Results

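Genes of cholesterol and fatty acid synthesis were followed through 4 mouse esophageal tumours, 2 from wild-type mice (WT) and 2 from mice that the labels call S100A14 CKO (KO in the text). The set was chosen by name and has 31 genes, all of which are among the 14157 genes listed in the deposited table. It holds 17 enzymes of the sterol pathway and the sterol carrier gene Stard4, 5 regulators, and 8 genes of fatty acid synthesis, elongation and desaturation. No cut on a measured value was used, but the choice was made with earlier results of these data known.

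All 4 tumours came from C57BL/6 mice and arose under 4NQO (4-nitroquinoline 1-oxide), which forms DNA adducts and yields squamous tumours of the mouse oral cavity and esophagus. The WT libraries carry the replicate numbers 3 and 6 and the KO libraries the numbers 1 and 8, so n = 2 per genotype. Neither the labels nor the design text give the age of the mice, the driver of the deletion or whether each library is from a separate animal. The p-values therefore reflect variation among these libraries, which may be technical. Pairs of values are in the order replicates 3 and 6 for WT and replicates 1 and 8 for KO. All values are for bulk tumour RNA, in which fewer cells of a type and less RNA per cell cannot be told apart.

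Cholesterol is built from acetyl-CoA through mevalonate, isoprenoid units, squalene and lanosterol, and fatty acids are built from the same acetyl-CoA through malonyl-CoA. Most enzymes of both routes are targets of the SREBP transcription factors, which leave the endoplasmic reticulum with the escort protein SCAP when membrane sterol is low and are held there by INSIG proteins when sterol is high. SREBP-2 acts mainly on the sterol genes and SREBP-1 mainly on the fatty acid genes. Squamous epithelium uses both routes for the lipids of its barrier layers.

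The 250 bases before the start site were available for 25 of the 31 members (RefSeq, GRCm38.p6), and 6 are printed here because they belong to the genes on which the results turn. Hmgcs1 is the member with the full core of a sterol regulatory element, Insig1 has the shorter form of it, Idi1, Msmo1 and Hsd17b7 belong to the sterol genes that were high in the same 2 libraries, and Fasn had close replicates in each genotype and no overlap between them. Capitals mark the sterol element core TCACNCCAC, its shorter form CACNCCAC, and CCAAT, the letters bound by NF-Y, on either strand (CCAAT reads ATTGG on the other one).
Hmgcs1, chr13:119690101-119690350, plus strand: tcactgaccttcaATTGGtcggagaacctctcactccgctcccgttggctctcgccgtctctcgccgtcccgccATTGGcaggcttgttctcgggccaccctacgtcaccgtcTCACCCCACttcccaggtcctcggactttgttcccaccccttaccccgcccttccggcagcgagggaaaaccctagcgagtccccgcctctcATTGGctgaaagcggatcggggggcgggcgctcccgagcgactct
Insig1, chr5:28071162-28071411, plus strand: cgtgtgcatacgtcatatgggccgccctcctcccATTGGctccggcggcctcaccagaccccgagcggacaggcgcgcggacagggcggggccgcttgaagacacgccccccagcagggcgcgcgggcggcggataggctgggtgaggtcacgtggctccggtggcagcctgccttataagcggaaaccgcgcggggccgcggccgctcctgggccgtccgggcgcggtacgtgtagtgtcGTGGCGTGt
Idi1, chr13:8885356-8885605, plus strand: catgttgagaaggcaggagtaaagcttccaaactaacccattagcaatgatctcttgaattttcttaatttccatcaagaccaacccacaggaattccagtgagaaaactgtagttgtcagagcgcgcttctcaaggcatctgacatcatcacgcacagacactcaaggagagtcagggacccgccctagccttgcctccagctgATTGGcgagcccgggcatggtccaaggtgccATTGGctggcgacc
Msmo1, chr8:64733579-64733828, minus strand: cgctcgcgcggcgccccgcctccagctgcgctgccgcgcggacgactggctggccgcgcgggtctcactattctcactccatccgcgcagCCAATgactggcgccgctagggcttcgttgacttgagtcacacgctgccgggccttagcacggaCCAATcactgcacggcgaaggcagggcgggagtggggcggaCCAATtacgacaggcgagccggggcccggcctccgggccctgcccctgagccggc
Hsd17b7, chr1:169969206-169969455, minus strand: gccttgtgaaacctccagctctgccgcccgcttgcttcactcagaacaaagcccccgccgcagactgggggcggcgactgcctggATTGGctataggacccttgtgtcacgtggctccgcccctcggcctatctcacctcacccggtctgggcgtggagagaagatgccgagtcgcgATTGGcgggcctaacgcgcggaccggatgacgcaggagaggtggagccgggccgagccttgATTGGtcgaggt
Fasn, chr11:120824548-120824797, minus strand: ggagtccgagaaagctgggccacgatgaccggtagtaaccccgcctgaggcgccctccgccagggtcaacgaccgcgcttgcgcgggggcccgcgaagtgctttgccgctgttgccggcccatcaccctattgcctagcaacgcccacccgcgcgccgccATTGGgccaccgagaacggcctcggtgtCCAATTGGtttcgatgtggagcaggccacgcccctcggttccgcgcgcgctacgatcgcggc

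CCAAT was found in 21 of the 25 members with a promoter, 84.0%, against 37.5% of all 27025 genes with one. A gene with several start sites was counted if any of its windows held the letters, for members and all genes alike. Of all 32851 windows, 33.8% held CCAAT. The comparison covers every gene with a promoter sequence, whether or not it was expressed in these tumours. The core TCACNCCAC was found in 1 member, 4.0% against 1.22% of all genes, and the shorter CACNCCAC, which was added after the first search and is held within every match of the longer form, in 2 members, 8.0% against 6.05%. In Hmgcs1, which makes HMG-CoA for the mevalonate route, the core lay 137 to 129 bases before the start, and CCAAT began 237, 176 and 45 bases before it on the opposite strand. Fasn had CCAAT on both strands in one overlapping stretch 62 to 55 bases before the start, and once more 90 bases before it. In Hsd17b7, CCAAT stood 165, 73 and 12 bases before the start, and in Idi1 45 and 14 bases before it. These matches are letters in a window and were not tied to binding or to any value below.

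The 4 libraries held 11132019 to 16182109 recovered reads, of which ribosomal RNA took 47.0% and 72.6% in WT and 76.4% and 50.8% in KO, and 1052423 to 2107060 reads fell on nuclear protein-coding genes. S100a14, the targeted gene, had 463 and 347 reads in the WT libraries against 0 and 1 in the KO libraries. KO replicate 8 stood apart, with log2 values that correlated at r = 0.769 to 0.816 with the other 3 libraries over 12304 genes, against 0.909 to 0.915 among those 3. It also had the lowest summed level of suprabasal keratinocyte markers, 153 against 2682 for KO replicate 1 and 12477 and 3551 for the WT libraries, and the highest of fibroblast markers, 849.8 against 97.6 to 239. Levels are given as scaled reads, the deposited unit, in which 1 read is worth 0.193 and 0.318 for the WT libraries and 0.220 and 0.258 for the KO libraries.

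Read depth varied within the set, and whether it was enough to detect a difference was not tested. At least 10 reads were present in every library for 25 members, and 6 members had fewer in at least 1 library. Tm7sf2, a sterol reductase gene, had 5, 2, 1 and 6 reads and was the sole member left out by the filter on low values, so 30 members were tested. None of the 30 passed that filter through 1 genotype alone.

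Per kilobase of exon and averaged over the 4 libraries, Scd2, a stearoyl-CoA desaturase gene, was the highest member at 24.1 scaled reads per kilobase. Hmgcs1 followed at 20.1, the fatty acid synthase gene Fasn at 15.4, the ATP citrate lyase gene Acly at 12.04, the isopentenyl diphosphate isomerase gene Idi1 at 9.66 and the farnesyl diphosphate synthase gene Fdps at 8.87. The other members lay between 0.191 for Tm7sf2 and 5.12 for Sqle, the squalene epoxidase gene. Scd2 stood well above its relative Scd1 (3.45 scaled reads per kilobase), but the pair is similar in sequence, and the treatment of reads that match both is unknown here. Scd2 and Fdps were far higher in WT replicate 3 than in the other 3 libraries, so their places in this order rest partly on that library.

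**Figure D1:**
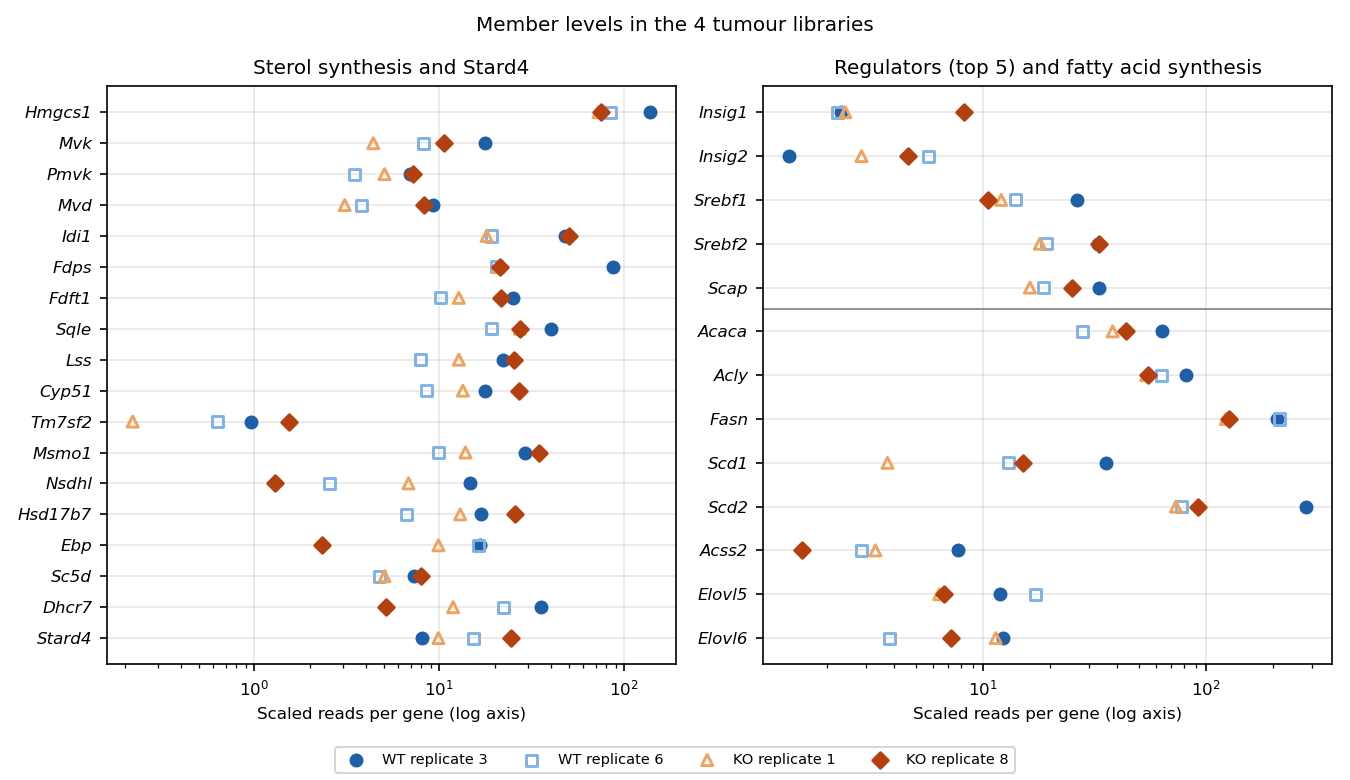
Level of each of the 31 members in the 4 libraries, in scaled reads on a log axis, with sterol genes in the left panel and regulators and fatty acid genes in the right panel. WT replicate 3 and KO replicate 8 (filled) lie together above WT replicate 6 and KO replicate 1 (open) for many sterol genes, for example Idi1 at 47.9 and 50.5 against 19.1 and 18.0, whereas Fasn separates by genotype at 209.6 and 213 against 123 and 127.

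No member passed the threshold between KO and WT: 0 of 30 had a limma adjusted p under 0.05, where 0.00813% of all 12304 genes did, the single gene being S100a14. The smallest adjusted p of a member was 0.910. At an unadjusted p under 0.05 there were 2 members, Dhcr7 and Ebp, both lower in KO, beside 5.25% of all genes in either direction and 3.62% in that direction. In the authors' deposited table the smallest adjusted p of a member was 0.289, for Dhcr7. By sign, 19 members were lower and 11 higher in KO, with a median log2 fold change of −0.12 against −0.03 for all genes, of which 52.5% were lower. The split was 15 lower and 15 higher with quantile normalization and with TMM factors from protein-coding genes. The 2 KO libraries lay below both WT libraries for 7 members (19.3% of all genes) and above both for 1 member (14.5% of all genes). Together 8 members did not overlap, beside 33.7% of all genes, and the genotypes overlapped for the other 22.

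**Figure D2:**
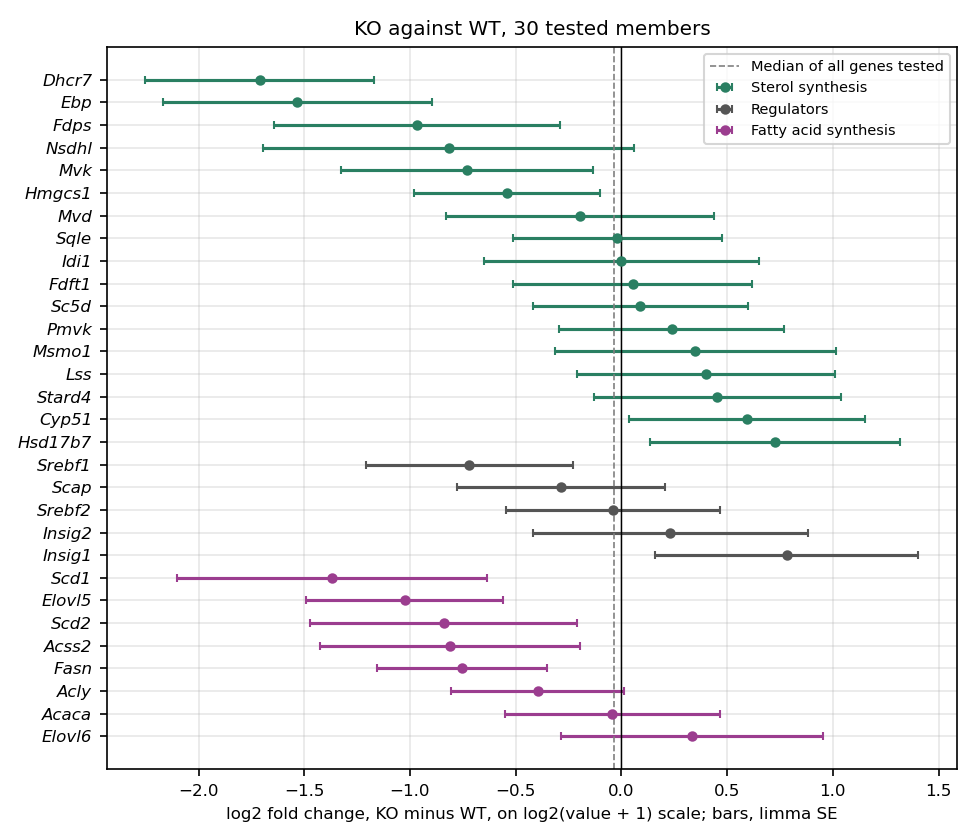
log2 fold change between KO and WT on the log2(value + 1) scale for the 30 tested members, grouped by role, with limma standard errors as bars and n = 2 libraries per genotype. The sterol genes spread on both sides of 0, from −1.71 for Dhcr7 to 0.73 for Hsd17b7, and 7 of the 8 fatty acid genes lie below 0.

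The enzymes that start the mevalonate route differed little between genotypes relative to the spread between libraries. Hmgcs1 had 138 and 83.9 in the WT tumours against 72.6 and 74.7 in the KO tumours. Both KO libraries were thus below both WT libraries, but WT replicate 6 was nearer to KO than to WT replicate 3 (log2 fold change −0.54, SE 0.44, limma unadjusted p = 0.259). The mevalonate kinase gene Mvk had 17.6 and 8.26 in the WT tumours against 4.40 and 10.6 in the KO tumours, and the groups overlapped. Pmvk, which adds the second phosphate, had 6.95 and 3.50 in the WT tumours against 5.06 and 7.22 in the KO tumours. Mvd, the decarboxylase that yields isopentenyl diphosphate, had 9.27 and 3.81 in the WT tumours against 3.08 and 8.25 in the KO tumours. In Pmvk and Mvd alike the higher library of each genotype was WT replicate 3 and KO replicate 8.

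The isoprenoid and squalene steps showed the same order of libraries or a single high one. Idi1 had 47.9 and 19.1 in the WT tumours against 18.0 and 50.5 in the KO tumours, so its group means were nearly equal (33.5 ± 20.4 and 34.3 ± 23.0, SD, n = 2 each) while each genotype spanned a range of more than 2-fold. Fdps, whose product feeds sterols and protein prenylation, had 86.7 and 20.3 in the WT tumours against 20.9 and 21.4 in the KO tumours. Fdps was thus high in WT replicate 3 and alike in the other 3 libraries, and its log2 fold change of −0.97 became 0.053 without WT replicate 3. Fdft1, the squalene synthase gene, had 24.9 and 10.2 in the WT tumours against 12.8 and 21.6 in the KO tumours. Sqle, which encodes a rate-limiting oxygenase of the pathway, had 40.0 and 19.1 in WT and 27.3 in both KO libraries.

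From lanosterol onward, the genes took different paths. Lss, the gene of lanosterol synthase, had 22.2 and 7.94 in the WT tumours against 12.8 and 25.3 in the KO tumours. The lanosterol demethylase gene Cyp51 had 17.6 and 8.58 in the WT tumours against 13.4 and 27.1 in the KO tumours, and the methylsterol oxidase gene Msmo1 had 29.1 and 9.85 in the WT tumours against 13.9 and 34.8 in the KO tumours. Hsd17b7, the sterol ketoreductase gene, had 16.8 and 6.67 in the WT tumours against 13.0 and 25.8 in the KO tumours (log2 fold change 0.73, SE 0.59, limma unadjusted p = 0.257). In these 4 genes KO replicate 8 was the highest library and WT replicate 6 the lowest. Sc5d, a late desaturase gene, had 7.34 and 4.77 in the WT tumours against 5.06 and 7.99 in the KO tumours.

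A further group of late enzymes, Dhcr7, Ebp and Nsdhl, had their lowest level in KO replicate 8. Dhcr7 (ENSMUSG00000058454, chromosome 7), which makes cholesterol from 7-dehydrocholesterol, had 35.5 and 22.2 in the WT tumours against 11.9 and 5.15 in the KO tumours, from 184, 70, 54 and 20 reads. Its WT mean was 3.39 times its KO mean, and neither KO value reached the lower WT value (log2 fold change −1.71, SE 0.54, limma unadjusted p = 0.0152, adjusted p = 0.910). Ebp (ENSMUSG00000031168, chromosome X), the sterol isomerase gene, had 16.6 and 16.2 in the WT tumours against 9.90 and 2.32 in the KO tumours. These values came from 86, 51, 45 and 9 reads, so the level in KO replicate 8 rests on few reads. The WT libraries agreed closely and the KO libraries differed by a log2 value of 1.72 (log2 fold change −1.53, SE 0.64, limma unadjusted p = 0.046, adjusted p = 0.926). Dhcr7 and Ebp passed the limma threshold when KO replicate 1 was left out (adjusted p = 0.0493 and 0.0412, with a largest adjusted p of 1 over the alternatives for each), a fit in which replicate 8 alone stands for KO and 510 of all 12304 genes, 4.14%, passed. Nsdhl, a sterol dehydrogenase gene, had 14.7 and 2.54 in the WT tumours against 6.82 and 1.29 in the KO tumours, and the groups overlapped. Its reads were 76, 8, 31 and 5. The lower levels of these 3 genes in KO replicate 8 stand beside a level of the suprabasal markers that was also lowest there, and the part of cell makeup in them was not tested.

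Stard4, which encodes a soluble carrier that moves cholesterol between membranes, had 8.11 and 15.3 in the WT tumours against 9.90 and 24.5 in the KO tumours. KO replicate 8 was its highest library, as for the enzymes above, but WT replicate 6 was above WT replicate 3.

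Among the regulators, Srebf2 and Scap were higher in WT replicate 3 and KO replicate 8, as most sterol enzymes were. Srebf2, the SREBP-2 gene, had 32.8 and 19.4 in the WT tumours against 18.0 and 33.2 in the KO tumours, and Scap had 33.2 and 18.7 in the WT tumours against 16.3 and 25.3 in the KO tumours. Srebf1 was the regulator whose KO values were both under its WT values, at 26.4 and 13.98 in the WT tumours against 12.1 and 10.6 in the KO tumours (log2 fold change −0.72, SE 0.49, limma unadjusted p = 0.184). Insig1, itself an SREBP target whose product closes the feedback, had 2.32 and 2.22 in the WT tumours against 2.42 and 8.25 in the KO tumours, from 12, 7, 11 and 32 reads. It was the member above both WT libraries in KO, but its difference rested on KO replicate 8 (log2 fold change 0.78, SE 0.62, limma unadjusted p = 0.248, and 0.06 without that library). Insig2, which is not driven by SREBP to the same degree, had 1.35 and 5.72 in the WT tumours against 2.86 and 4.64 in the KO tumours.

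Fatty acid genes were more often on the lower side in KO: 7 of 8 by sign, beside 52.5% of all genes (6 of 8 with quantile normalization or TMM factors, and 5 of 8 without WT replicate 3). Their median log2 fold change was −0.78 against −0.03 for all genes, and 3 of 8 were below both WT libraries, beside 19.3% of all genes. Fasn (ENSMUSG00000025153, chromosome 11), the synthase that builds palmitate, had 209.6 and 213 in the WT tumours against 123 and 127 in the KO tumours, from 1086, 671, 560 and 491 reads. The replicates of each genotype lay close together (211 ± 2.52 and 125 ± 2.39, SD, n = 2 each), and the WT mean was 1.69 times the KO mean. The test across all genes gave a log2 fold change of −0.76 with an SE of 0.40 (limma unadjusted p = 0.101, adjusted p = 0.926), with a standard error that limma moderates towards the spread of other genes at that level. Over the libraries left out, the Fasn log2 fold change ranged from −0.77 to −0.74, but with quantile normalization it was −0.48 (limma unadjusted p = 0.263). The summed suprabasal markers were 12477 and 3551 in the WT tumours against 2682 and 153 in the KO tumours, and their part in the Fasn difference was not tested.

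Acly, which supplies cytosolic acetyl-CoA from citrate, had 81.6 and 63.5 in the WT tumours against 54.1 and 54.9 in the KO tumours, again with close KO values below both WT libraries. Acaca, the acetyl-CoA carboxylase gene, had 63.9 and 27.96 in the WT tumours against 38.3 and 44.1 in the KO tumours, and the groups overlapped. Acss2, which makes acetyl-CoA from acetate, had 7.72 and 2.86 in the WT tumours against 3.30 and 1.55 in the KO tumours, from 40, 9, 15 and 6 reads. Acly and Fasn thus separated by genotype in these libraries, and Acaca and Acss2 did not.

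The elongase gene Elovl5, which lengthens polyunsaturated fatty acids, had 11.97 and 17.2 in the WT tumours against 6.38 and 6.70 in the KO tumours, and each KO value was under the lower WT value (log2 fold change −1.03, SE 0.46, limma unadjusted p = 0.0621). Elovl6, which lengthens palmitate, had 12.4 and 3.81 in the WT tumours against 11.4 and 7.22 in the KO tumours and was the fatty acid gene on the higher side. Scd1, which introduces the double bond of oleate, had 35.5 and 13.0 in the WT tumours against 3.74 and 15.2 in the KO tumours, so its lowest value was in KO replicate 1 (log2 fold change −1.37, SE 0.73, limma unadjusted p = 0.103). Scd2 had 282 and 78.2 in the WT tumours against 73.5 and 92.8 in the KO tumours, which left WT replicate 3 alone above the rest, and its log2 fold change of −0.84 became 0.078 without that library. The median of the 8 fatty acid genes was −0.22 without WT replicate 3 and between −0.76 and −0.58 without any of the other 3 libraries.

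Within each genotype most sterol genes differed between libraries in one direction. WT replicate 3 was above WT replicate 6, and KO replicate 8 above KO replicate 1, for 13 of 17 tested sterol genes, 3 of 5 regulators and 4 of 8 fatty acid genes, in all 20 of 30 members, against 20.5% of all genes. This pair of directions was not planned and was taken from these same values. The share of all genes beside it is therefore a description and not a test. The pattern was not limited to this set. It was also present in 5 of 10 proliferation markers, 4 of 9 macrophage markers and 3 of 7 tested skeletal muscle markers. None of the 6 fibroblast or 11 suprabasal markers had it. Taken singly, WT replicate 3 was the higher WT library for 26 of 30 members (55.0% of all genes), and KO replicate 8 the higher KO library for 24 (46.9% of all genes). The ribosomal RNA share split the libraries likewise, at 47.0% and 50.8% in WT replicate 3 and KO replicate 8 and at 72.6% and 76.4% in WT replicate 6 and KO replicate 1, and its part in the result was not tested. The counts of sterol genes, regulators and fatty acid genes with both differences were 13, 3 and 4 with TMM factors too, and 13, 2 and 4 with quantile normalization. With a ratio of at least 1.5 in both genotypes, a limit set after the values were seen, 12 members remained (5.74% of all genes). They were Mvk, Mvd, Idi1, Fdft1, Lss, Cyp51, Msmo1, Hsd17b7 and Sc5d of the sterol genes, Srebf2 and Scap of the regulators, and Scd1. The median difference of the sterol genes was 1.03 between the WT libraries and 0.72 between the KO libraries on the log2(value + 1) scale, whereas over all genes it was 0.08 and −0.07.

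**Figure D3:**
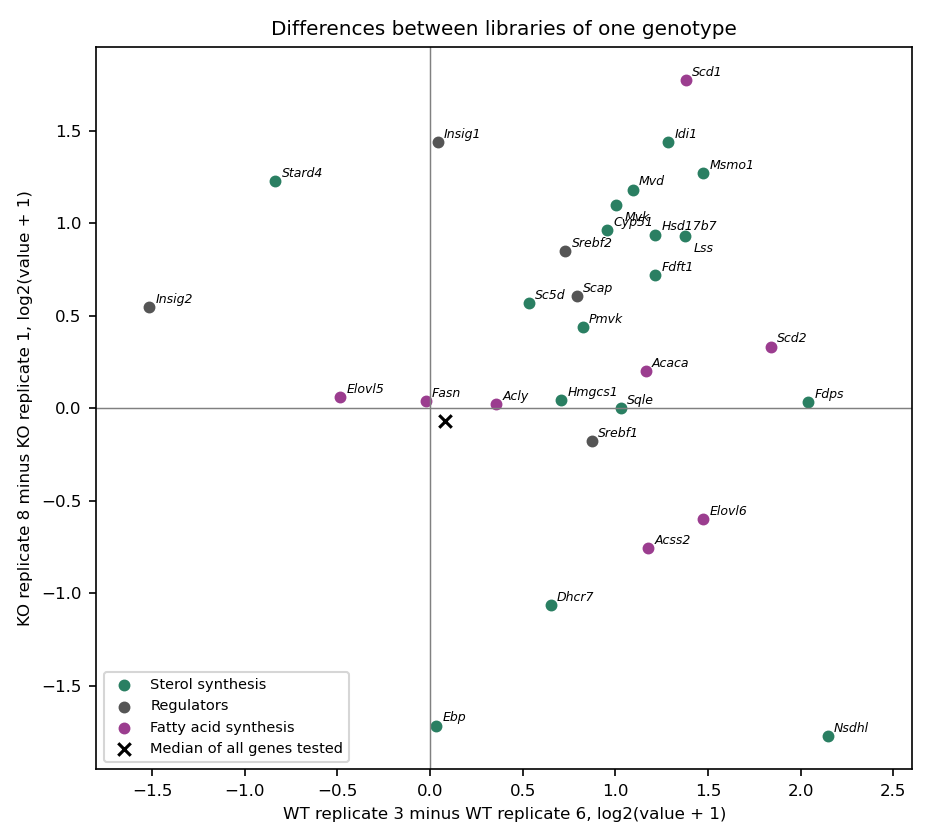
Difference between the WT libraries (replicate 3 minus replicate 6, horizontal) against that between the KO libraries (replicate 8 minus replicate 1, vertical) for the 30 tested members, both on the log2(value + 1) scale, with the median of all tested genes as a cross. Most sterol genes lie in the upper right, for example Idi1 at 1.28 and 1.44 and Msmo1 at 1.47 and 1.27, while Dhcr7, Ebp and Nsdhl lie below the horizontal line.

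The direction of the sterol genes between genotypes turned with the library left out. The 17 tested sterol genes were 9 lower and 8 higher in KO with all libraries, and 7 lower and 10 higher with TMM factors or quantile normalization. Their median log2 fold change was 0.36 without WT replicate 3 and 0.40 without KO replicate 1, but −0.55 without WT replicate 6 and −0.28 without KO replicate 8. Proliferation markers, whose genes include Mki67 and Top2a, had summed levels of 599.5 and 409 in the WT tumours against 599 and 622 in the KO tumours, with the lowest sum in WT replicate 6, although 4 of the 10 markers were lowest there, while KO replicate 1 was lowest for 4 and KO replicate 8 for 2. The summed fibroblast markers were 108 and 239 in the WT tumours against 97.6 and 849.8 in the KO tumours, and the suprabasal markers were higher in WT replicate 3 than in WT replicate 6 but lower in KO replicate 8 than in KO replicate 1. The part of cell makeup in the shared variation was not tested.

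Cells rich in lipid synthesis were looked for by their markers. Of 13 adipocyte markers 7 were listed, and Adipoq, Plin1, Cidec, Retn, Cfd and Lep were not among the listed genes. The summed level of the 7 was 22.004 and 22.9 in the WT tumours against 12.8 and 18.6 in the KO tumours. Of that, Fabp4, which endothelial cells and macrophages also express, made up 8.69 and 10.2 in WT against 0.880 and 4.38 in KO. Of the 4 tested adipocyte markers 2, Fabp4 and Lipe, were lower in KO and 2 were higher. The higher ones were Lpl (0.965 and 0.318 in WT against 3.52 and 1.80 in KO) and Pnpla2 (3.47 and 6.04 against 3.74 and 9.53). Lpl passed the filter on low values through KO alone, so its direction was fixed by the filter. Of 9 sebocyte markers 1 was listed, Mgst1, a gene that many epithelia express, at 35.3 and 20.0 in the WT tumours against 11.9 and 3.09 in the KO tumours. The adipocyte genes Adipoq and Plin1 and the sebocyte genes Mc5r and Awat2 were thus not among the listed genes. Keratinocyte markers were abundant, with a summed basal level of 22279 and 20655 in the WT tumours against 18776 and 4520 in the KO tumours. Krt5 and Krt14 made up most of that sum, and the basal markers did not all fall. By log2 fold change 5 of the 7 were lower in KO and 2 higher, Itga6 and Itgb4. Itga6 had 149.8 and 152 in the WT tumours against 263 and 282 in the KO tumours. Skeletal muscle markers summed to 61.8 and 63.5 in the WT tumours against 72.6 and 342 in the KO tumours. Of that, Tnni2 alone made up 56.6 and 50.8 in WT against 52.3 and 54.6 in KO. By sign, 6 of the 7 tested muscle markers were higher in KO and 1, Tnni2, was lower. Among the 6, Tnnt3 and Mylpf passed the filter on low values through KO alone, which fixed their direction in advance. Acta1 had 0.386 and 3.81 in WT against 7.04 and 117.5 in KO, and Des 1.93 and 3.18 against 5.06 and 114. Macrophage markers summed to 35.7 and 41.3 in the WT tumours against 91.9 and 198 in the KO tumours.

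The elongation and desaturation genes outside the set, listed together with the carboxylase gene Acacb, were lower in KO for 8 of 10 tested members. All 8 were below both WT libraries (52.5% and 19.3% of all genes were lower and below both). Acacb, from 13, 9, 1 and 9 reads, was among the 8. The median log2 fold change of the list was −1.05 (−0.67 without KO replicate 8, −0.99 with quantile normalization and −1.01 with TMM factors). None passed over all genes tested, in either direction. Elovl4, the elongase that makes the ultra-long fatty acids of barrier ceramides, had 28.2 and 18.4 in the WT tumours against 6.38 and 3.09 in the KO tumours (log2 fold change −2.12, SE 0.52, limma unadjusted p = 0.00450, adjusted p = 0.907). Elovl1, which lengthens saturated very long chains, had 28.2 and 19.4 in the WT tumours against 10.1 and 4.64 in the KO tumours. Tecr, the reductase that ends each elongation cycle, had 89.6 and 62.3 in the WT tumours against 40.2 and 14.2 in the KO tumours. Elovl7 had 19.3 and 17.5 in the WT tumours against 12.5 and 2.06 in the KO tumours.

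These 4 genes ran in the same order, with WT replicate 3 the highest, then WT replicate 6, KO replicate 1 and KO replicate 8. That is also the order of the summed suprabasal markers at 12477, 3551, 2682 and 153, but not of each marker. Krt4 and Krt13 made up most of the sum, and Krt13 was higher in KO replicate 1 (2094) than in WT replicate 6 (1688). Of the 11 suprabasal markers 10 were lower in KO and 1, Ivl, was higher. The part of cell makeup in this order was not tested. Elovl4, Tecr and Elovl7 were among the 4.14% of all genes that passed the limma threshold without KO replicate 1 (adjusted p = 0.0317, 0.0302 and 0.0252, with a largest adjusted p of 1 over the alternatives for each).

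**Figure D4:**
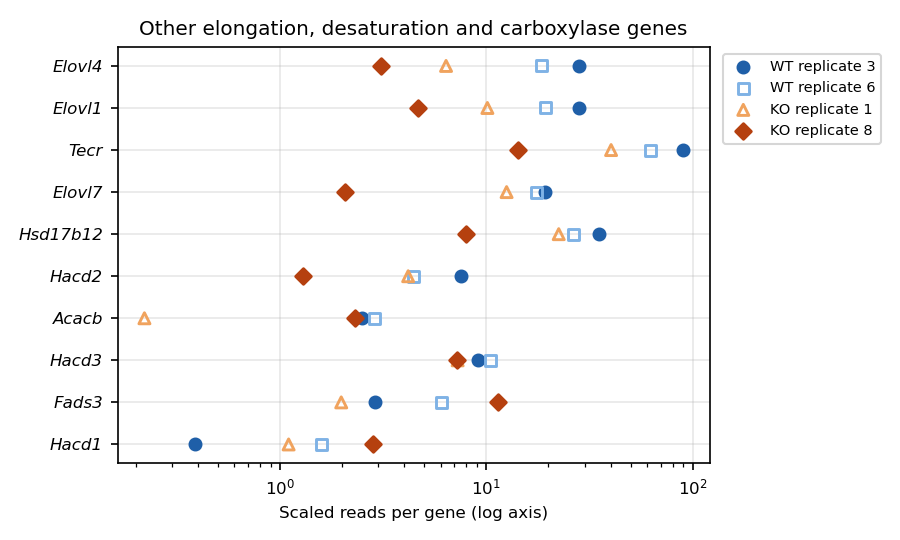
Level of the 10 listed elongation, desaturation and carboxylase genes outside the set in the 4 libraries, in scaled reads on a log axis, sorted by fold change. Elovl4, Elovl1, Tecr and Elovl7 fall in the order WT replicate 3, WT replicate 6, KO replicate 1, KO replicate 8, for example Tecr at 89.6, 62.3, 40.2 and 14.2.

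Other SREBP targets gave no common direction between genotypes: of 17 tested, 9 were lower and 8 higher in KO (median −0.09), and 0 passed in either direction. Within genotypes, 6 of the 17 (35.3%, against 20.5% of all genes) had the order of libraries seen for the sterol genes. Aacs, which makes acetoacetyl-CoA in the cytosol, had 36.1 and 28.6 in the WT tumours against 16.7 and 21.6 in the KO tumours, and Mid1ip1, an activator of acetyl-CoA carboxylase, had 21.8 and 35.9 in the WT tumours against 15.4 and 18.3 in the KO tumours. Slc25a1, the mitochondrial citrate carrier gene, went the other way, with 7.14 and 11.8 in the WT tumours against 13.4 and 16.7 in the KO tumours. Fabp5, the epidermal fatty acid binding protein gene, had 1338 and 880.1 in the WT tumours against 966 and 279 in the KO tumours.

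Genes that process or degrade SREBP, SCAP and INSIG partners were higher in KO for 6 of 8 tested members (median 0.21), and 0 passed in either direction. Without KO replicate 8, 3 were lower and 5 higher, with a median of 0.098. Pgrmc1, whose product binds sterol and heme, had 27.2 and 41.0 in the WT tumours against 11.9 and 12.9 in the KO tumours (log2 fold change −1.36, SE 0.45, limma unadjusted p = 0.0178), and its KO values were close to each other and under both WT values. Fbxw7, the ubiquitin ligase gene whose product targets nuclear SREBP, had 18.9 and 12.1 in the WT tumours against 28.6 and 20.9 in the KO tumours. Rnf139, a ubiquitin ligase gene, had 6.56 and 3.18 in the WT tumours against 9.24 and 4.64 in the KO tumours. The protease genes Mbtps1 and Mbtps2, whose products release active SREBP, had 30.7 and 21.0 in the WT tumours against 27.5 and 36.3 in the KO tumours, and 6.37 and 8.26 in the WT tumours against 8.14 and 9.53 in the KO tumours.

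The list of genes of the sterol receptor LXR, of its targets and of cholesterol transport and storage was split. Of its 10 tested members 5 were lower and 5 higher in KO (median −0.01), and 0 were past the threshold in either direction. Apoe, the apolipoprotein E gene, was the clearest, at 38.2 and 41.3 in the WT tumours against 96.5 and 138 in the KO tumours (log2 fold change 1.52, SE 0.42, limma unadjusted p = 0.00838, adjusted p = 0.910). Macrophages express Apoe strongly, and the summed macrophage markers had the same order of libraries, at 35.7, 41.3, 91.9 and 198, a link that was not tested further. Soat1, which esterifies cholesterol for storage, had 1.93 and 4.45 in the WT tumours against 2.86 and 15.98 in the KO tumours. Nr1h2, the gene of the sterol receptor LXR-beta, had 23.2 and 20.0 in the WT tumours against 15.0 and 12.1 in the KO tumours. Npc2, whose product moves cholesterol out of lysosomes, had 36.7 and 31.1 in the WT tumours against 24.0 and 24.5 in the KO tumours. The cholesterol exporter gene Abca1 had 54.6 and 10.5 in the WT tumours against 20.5 and 31.4 in the KO tumours, in the order of the sterol enzymes.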

How the data were processed

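Tumour RNA was extracted with Trizol and sequenced from TruSeq libraries, per the labels' protocols. The submitters' processing notes name DESeq and the build mm9, and no source used here gives the aligner, read counter or strand setting. The library columns deposited by the authors hold scaled read signal, and 100% of their values were whole multiples of 1 read (tolerance 0.001). The authors' fold changes are on a log2 scale, per the file headers, and their p-value columns come from a test the headers do not name.

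Whole reads were recovered, and values were tested as log2(value + 1), which understates changes of low genes. The 12304 genes that reached 1 in 2 or more libraries were fitted in limma 3.58.1 (R 4.3.3) with a trended prior and a genotype term. Tests were two-sided, with p-values adjusted by Benjamini-Hochberg across those genes and called under 0.05. An exact permutation test of 2 against 2 libraries cannot go below p = 0.333 and was not used. The code was tested on simulated data.

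The members and lists were chosen with earlier results of these data known. Any member could be named, with statistics for the 12 of smallest p, as could up to 4 genes of each pathway list by smallest p. Other genes, Fabp4, Mbtps2 and Abca1, were named after their values were seen. So were the single keratinocyte, skeletal muscle and other adipocyte markers given with values. Alternatives were quantile normalization, TMM factors, a pseudocount of 0.1, no filter, no trend, edgeR 4.0.16 and DESeq2 1.42.0 on recovered reads, and leaving out each library. Exon lengths came from GENCODE M21 (GRCm38), matched by gene ID, and promoters from RefSeq (GRCm38.p6). Counting limits cover counting error only. Some genes of the SREBP processing list are not reported here.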

Additional observations from a re-analysis of the deposited data

How the results depend on the processing

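The count of genes past the threshold was 1 in the reported fit, 0 with a pseudocount of 0.1, 2 without the filter on low values, 0 in edgeR's quasi-likelihood test (520 at an unadjusted p under 0.05) and 52 in DESeq2, and lay between 0 and 510 when a library was left out (510 without KO replicate 1 and 6 without KO replicate 8). The cause was not tested. No member passed in any of the 7 fits that changed the scaling, pseudocount, filter, prior or test. With a library left out, 0 to 2 members passed, 11 to 25 of 30 were lower in KO and 15 to 22 did not overlap, where a lone library makes overlap rarer by construction. The median of the members was −0.12 in the reported fit and lay between −0.63 and 0.18 when a library was left out. Of 132 refits of the 12 members with statistics, 128 kept their direction without passing, 2 passed, and 2 turned without WT replicate 3: Fdps, from −1.99 to 0.053 over the libraries left out, and Scd2, from −1.76 to 0.078. Of 220 refits of the named pathway genes, 216 kept their direction without passing, 3 passed and 1 turned: Soat1 without KO replicate 8, from −0.050 to 2.09 over the libraries left out. With all libraries kept, values that moved by over 1.5 times were −0.48 for Fasn and −0.59 for Fabp5 with quantile normalization, 1.29 for Insig1 in edgeR and DESeq2, and 1.65 and 1.63 for Soat1 in edgeR and DESeq2. No paired analysis was possible because the WT and KO libraries share no replicate number. Members with few reads in at least 1 library, namely Tm7sf2, Acss2, Insig1, Insig2, Nsdhl and Ebp, are limited by counting error.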

Other observations

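Fatty acid oxidation, the opposite route, was lower in KO by sign for 12 of 15 tested genes, beside 52.5% of all genes (median −0.25 against −0.03 for all genes), 6 of them below both WT libraries (19.3% of all genes), and 0 passed in limma in either direction. Cpt1a, which admits long-chain fatty acids to the mitochondrion, had 84.5 and 30.2 in the WT tumours against 28.6 and 10.8 in the KO tumours. Hadhb, a subunit gene of the trifunctional protein, had 57.5 and 37.8 in the WT tumours against 25.1 and 22.2 in the KO tumours. Etfb, an electron transfer flavoprotein gene, had 30.3 and 26.7 in the WT tumours against 18.0 and 10.1 in the KO tumours, and Cpt2, the partner of Cpt1a, had 10.2 and 11.8 in the WT tumours against 6.16 and 4.38 in the KO tumours. In these 4 genes KO replicate 8 was the lowest library, and without WT replicate 3 the list was 8 lower and 7 higher. Acadl and Acadm, acyl-CoA dehydrogenase genes chosen after their values were seen, had 15.2 and 14.9 in the WT tumours against 15.4 and 17.0 in the KO tumours, and 13.3 and 6.35 in the WT tumours against 10.3 and 7.73 in the KO tumours.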
